A study of Mus musculus with 30 samples.

Results

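The Wnt genes described here are 2 ligands (Wnt3 and Wnt5a), 2 Frizzled receptors (Fzd2 and Fzd7), 3 intracellular genes of the beta-catenin branch that are also its targets (Axin2, Lef1 and Tcf7), 2 secreted antagonists (Dkk1 and Sfrp1) and the matricellular target Wisp1. They were taken by symbol, and all 10 are among the 14685 genes of the table and among the 14525 genes tested. The members, and the pathway lists and markers used below, were chosen with earlier results of these data known. Their medians and shares are therefore a description of chosen sets. Total RNA was measured in E14 mouse embryonic stem cells (ESC) and 4 populations made from them in culture, 30 samples in all, in WT cells, in Sp1_deltaDBD cells, which carry Sp1 without its DNA-binding domain, and in Sp3KO cells, which lack Sp3. Flk1 cells were purified from embryoid bodies with an antibody to Flk1, the VEGF receptor of early mesoderm. HE1, HE2 and progenitor cells were sorted on day 2 of the blast culture seeded with Flk1 cells: HE1 cells carried KIT and Tie2 but not CD41, HE2 cells carried all 3 proteins, and progenitor cells carried KIT and CD41 but not Tie2. Each of the 15 groups has 2 samples. Every group is a culture of the same parental line, no label says that a mutant was studied in more than 1 line, and the undifferentiated cells had been kept on fibroblast feeders before 2 passages without them.

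Wnt proteins are secreted lipid-modified ligands that bind Frizzled receptors and, in the canonical branch, stop the destruction of beta-catenin, which then works with the DNA-binding factors Tcf7 and Lef1. Axin2 is a scaffold of the destruction complex and a feedback target, Dkk1 blocks the Lrp co-receptors, and Sfrp1 binds the ligands outside the cell. Canonical signalling, with Wnt3 among its ligands, is needed for the primitive streak and mesoderm, and in cultures of this kind it has to be active while mesoderm forms and is lower while blood forms. Sp1 and Sp3 are related zinc finger factors that bind the same GC-rich elements in many promoters.

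Levels are the deposited quantile-normalised FPKM (fragments scaled to transcript length and to the size of the library). Differences are in log2(FPKM + 0.1), so that the change of a low gene is understated, and were tested with limma over all 14525 genes, with a Benjamini-Hochberg adjusted p under 0.05 called. The depth behind each value is unknown, and 2 samples against 2 cannot give an exact permutation p below 0.333. In bulk samples fewer cells of a type and less RNA per cell cannot be told apart. Sp3 was at 3.38 to 7.79 FPKM in the 10 Sp3KO samples and at 25.9 to 58.1 in the 10 WT samples. Sp1 RNA, which the loss of the DNA-binding domain need not remove, was at 14.8 to 40.5 FPKM in Sp1_deltaDBD and 24.9 to 52.4 in WT. It was called lower in Sp1_deltaDBD Flk1, HE2 and progenitor cells (-0.63, -0.56 and -0.76, adjusted p = 0.0311, 0.0404 and 0.00788 by limma), but not in ESC or HE1. Sp3 was called higher in Sp1_deltaDBD HE1 (0.71, adjusted p = 0.021 by limma) and in no other Sp1_deltaDBD population. The 7 pluripotency markers summed to 1353 to 1693 FPKM in ESC and to at most 15.3 after Flk1. The 8 endothelial markers were highest in HE1, at 851 to 1308 FPKM, and the 8 blood markers in progenitor cells, at 1398 to 10663. A list of 13 stromal or epithelial-like markers was higher in replicate 1 than in replicate 2 of WT and Sp1_deltaDBD HE1, HE2 and progenitor cells. It summed to 225 to 2769 FPKM in these 6 replicate 1 libraries against 30 to 465 in replicate 2 of the same groups. In the 6 Sp3KO libraries of these populations it summed to 105 to 310, and the 3 ranges overlap. Values without those 6 libraries, singly or together, stand beside the results that they change. With all 6 left out, WT and Sp1_deltaDBD have 1 sample in each of these populations, whose spread is then taken from the other groups.

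In WT cells the canonical pathway genes formed a peak at the Flk1 stage. Of the 10 genes, 7 rose from ESC to Flk1 cells, Sfrp1 fell, and Tcf7 and Wisp1 were not called. The background was high, since 52.2% of all genes tested were called in this comparison, but the median of the 10 differences was 2.01 against 0.03 over all genes. From Flk1 to HE1 the direction turned: 6 of the 10 fell and Wisp1 rose, at a background of 53%, with a median of -2.08 against -0.08. From HE1 to HE2 a further 5 fell and none rose, at a background of 21.9%, and from HE2 to progenitor cells none was called by limma, at a background of 13.2%, although Wnt3 and Lef1 had an unadjusted p of 0.00786 and 0.00701. The plot of the 10 genes by sample shows this course.

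**Figure D1:**
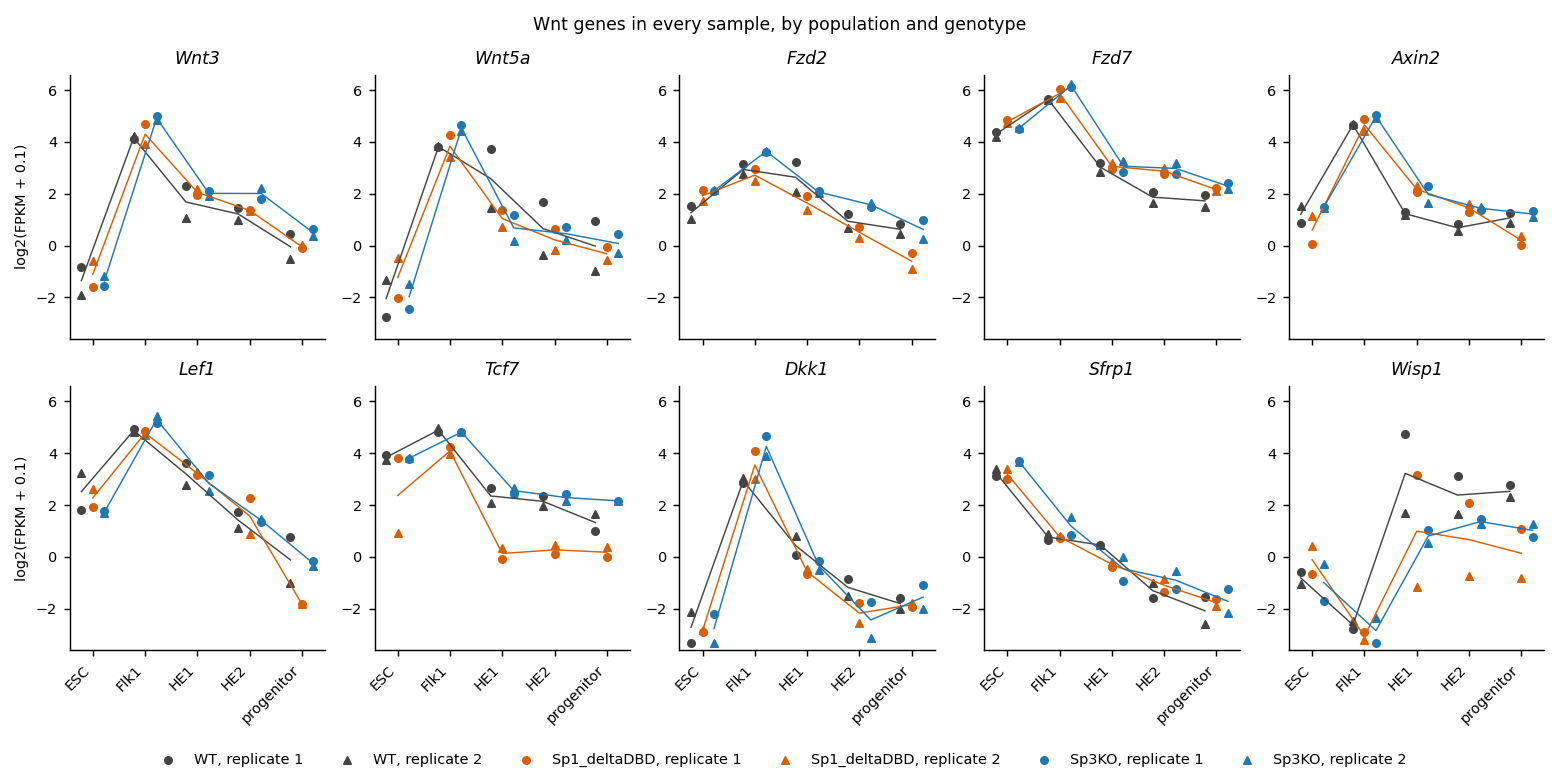
Level of the 10 Wnt genes in each of the 30 samples, as log2(FPKM + 0.1) on the vertical axis, by population on the horizontal axis. Circles are replicate 1, triangles replicate 2, colours the genotype, and lines join the group means. Wnt3, Wnt5a, Axin2, Lef1 and Dkk1 peak in Flk1 cells in all 3 genotypes, Tcf7 of Sp1_deltaDBD cells lies below the other genotypes from HE1 onwards, and Wisp1 spreads widely between replicates in HE1.

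The ligands were close to the lowest values of the table in ESC. In WT, Wnt3 had 0.471 and 0.168 FPKM for ESC, 17.1 and 18.6 for Flk1, 4.87 and 1.97 for HE1, 2.64 and 1.88 for HE2, and 1.25 and 0.595 for progenitor cells. The 2 Flk1 samples thus stood far above all other WT samples, and neighbouring populations overlapped only between HE1 and HE2. The rise into Flk1 was 5.52 ± 0.426 (difference in log2 ± standard error, n = 2 per group, adjusted p = 2.75e-09 by limma), which is 45.9-fold on this scale, and the change into HE1 was -2.48 ± 0.426 (adjusted p = 7.08e-05 by limma). Wnt5a, best known for signalling that does not use beta-catenin, was at 0.0464 and 0.302 FPKM in WT ESC and at 13.7 and 14.2 in Flk1, a difference of 5.86 ± 0.789 (adjusted p = 4.27e-06 by limma). It did not drop as evenly as Wnt3 after that stage: the HE1 samples had 13.1 and 2.62 FPKM, the HE2 samples 3.14 and 0.667, and the progenitor samples 1.82 and 0.407. In each of these pairs the higher value is that of replicate 1, the replicate with the high stromal marker sum, and the change from Flk1 to HE1 was not called (-1.23 ± 0.789, adjusted p = 0.202 by limma). Without the 6 replicate 1 libraries named above it was -2.37 and called (adjusted p = 0.014), and so it was without replicate 1 of WT HE1 alone (-2.37, adjusted p = 0.0348).

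The receptors were present before differentiation began. Fzd7, a receptor found in undifferentiated cells, had the highest level of the 10 genes at every WT stage up to Flk1: 20.9 and 18.3 FPKM in ESC and 50.7 and 49.2 in Flk1. It then had 9.03 and 7.14 FPKM at HE1, 4.12 and 3.06 at HE2, and 3.8 and 2.71 at the progenitor stage, so that each step before the last separated the samples completely. The differences were 1.35 ± 0.199 into Flk1, -2.62 ± 0.199 into HE1 and -1.16 ± 0.199 into HE2 (adjusted p = 1.26e-05, 3.71e-09 and 0.000469 by limma). Fzd2 varied less, with 2.79 and 1.91 FPKM for ESC, 8.66 and 6.61 for Flk1, 9.16 and 4.07 for HE1, 2.21 and 1.49 for HE2, and 1.67 and 1.25 for progenitor cells. Its Flk1 and HE1 samples overlapped, and its fall came one stage later than that of Fzd7, from HE1 to HE2 (-1.69 ± 0.351, adjusted p = 0.00205 by limma). With the 6 replicate 1 libraries left out a fall from Flk1 to HE1 was called too (-0.88, adjusted p = 0.0374). The later fall rests in part on replicate 1 of WT HE1, without which it was -1.12 and not called (adjusted p = 0.0566).

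Axin2, the most direct feedback readout among the 10, was at 1.75 and 2.77 FPKM in WT ESC, at 24.8 and 25.5 in Flk1 and back at 2.34 and 2.15 in HE1. It stayed between 1.37 and 2.3 FPKM in the 4 HE2 and progenitor samples, so its high level was confined to Flk1 among the 5 WT populations. The rise was 3.46 ± 0.295 and the fall -3.43 ± 0.295 (adjusted p = 1.13e-08 and 1.95e-08 by limma). Lef1 had 3.4 and 9.29 FPKM at ESC, 30.4 and 28.2 at Flk1, 12.4 and 6.72 at HE1, 3.19 and 2.08 at HE2, and 1.61 and 0.4 at the progenitor stage. It fell in 2 called steps, by 1.67 ± 0.508 into HE1 and by 1.79 ± 0.508 into HE2 on the log2 scale (adjusted p = 0.00953 and 0.0168 by limma). Neither step is robust to single libraries: the first was -1.23 without replicate 2 of WT HE1 (adjusted p = 0.114), and the second was -1.35 without replicate 1 of WT HE1 and -1.49 without replicate 2 of WT HE2 (adjusted p = 0.168 and 0.115). Without the 6 replicate 1 libraries the step from HE2 to progenitor cells was called for Lef1 (-2.12, adjusted p = 0.0195). Tcf7 was already at 15.3 and 13.3 FPKM in WT ESC, reached 28.1 and 31.3 in Flk1 and dropped to 6.15 and 4.08 in HE1 (-2.54 ± 0.521, adjusted p = 0.000428 by limma). Its later levels were 4.95 and 3.78 FPKM in HE2 and 1.91 and 3.04 in progenitor cells, neither step being called.

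The 2 antagonists ran in opposite directions at the first step. Dkk1 was at 0.000652 and 0.131 FPKM in WT ESC and at 7.11 and 8.09 in Flk1 (5.65 ± 0.533, adjusted p = 4.2e-08 by limma), and it dropped to 0.949 and 1.66 in HE1 (-2.50 ± 0.533, adjusted p = 0.000605 by limma). It was at 0.456 and 0.254 FPKM in HE2, where the call of its further fall (-1.61, adjusted p = 0.036 by limma) is lost when any 1 of the 4 samples is left out, with adjusted p of 0.0526 to 0.215. Sfrp1 was highest in ESC, at 8.57 and 10.4 FPKM, and had 1.48 and 1.74 at Flk1, 1.27 and 1.28 at HE1, 0.236 and 0.392 at HE2, and 0.239 and 0.0659 at the progenitor stage. It fell into Flk1 by 2.49 ± 0.39 and into HE2 by 1.76 ± 0.39 on the log2 scale (adjusted p = 2.59e-05 and 0.00339 by limma). Without the 6 replicate 1 libraries the fall into HE2 was not called for Dkk1 (-2.31, adjusted p = 0.0781) or Sfrp1 (-1.49, adjusted p = 0.082).

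Wisp1, a secreted CCN family protein, had the reverse course to the other targets. In WT it had 0.569 and 0.388 FPKM for ESC, 0.0462 and 0.0801 for Flk1 cells, 26.9 and 3.14 for HE1, 8.69 and 3.02 for HE2, and 6.68 and 4.84 for progenitor cells. All 6 blast culture samples lay above all 4 earlier samples, and the rise from Flk1 to HE1 was 5.85 ± 1.13 (adjusted p = 0.000234 by limma). Without the 6 replicate 1 libraries this rise was 4.32 and called. A fall from ESC to Flk1 was then called too, at a difference of -1.82 that did not change, since none of these libraries is in that comparison. The standard error of Wisp1 is the largest of the 10 genes, and replicate 1 exceeded replicate 2 by 8.59 times in WT HE1, where the stromal marker sum differed by 5.96 times.

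The rest of the pathway rose into Flk1 in larger part than all genes in WT, and less clearly fell afterwards. It was taken as lists of ligands, the secretion genes Porcn and Wls, receptors, antagonists, R-spondins, cytoplasmic and nuclear components and targets. The CCN family of Wisp1 was also among the lists. Of the 75 listed genes tested beside the 10, 36 rose and 13 fell into Flk1, which is 65.3% against 52.2% of all genes, with a median difference of 0.76 against 0.03. Into HE1 16 were higher and 28 lower, 58.7% against 53% of all genes, and the median of -0.15 lay near the -0.08 of all genes. Into HE2 2 rose and 19 fell (28% against 21.9%, median -0.42 against 0.05), and into progenitor cells 3 rose and 11 fell (18.7% against 13.2%, median -0.09 against 0.04). The largest rises into Flk1 were those of Rspo3, which strengthens the response to Wnt ligands (7.81 ± 0.311, adjusted p = 3.1e-13 by limma), and of Nkd1, a feedback inhibitor (6.51 ± 0.346, adjusted p = 1.63e-11). Rspo3 went from 0.125 and 0.0377 FPKM in ESC to 38.5 and 40.3 in Flk1. The largest falls at this step were those of the antagonist Sfrp4 (-3.95 ± 0.428, adjusted p = 2.71e-07 by limma) and of the receptor Fzd5 (-3.16 ± 0.225, adjusted p = 9.72e-10). Into HE1 the mesoderm factor T dropped from 41.9 and 31.6 FPKM to 0.047 and 0.078, and Wnt5b from 6.9 and 8.17 to 0.125 and 0.135, while Sost, an Lrp antagonist listed at 0 in both Flk1 samples, had 9 and 7.41 FPKM in HE1. Into HE2 the repressor Tcf7l1 (-3.05 ± 0.494, adjusted p = 0.000283 by limma) and the membrane antagonist Apcdd1 (-2.09 ± 0.255, adjusted p = 2e-05) fell most and Fzd10 rose most (0.95 ± 0.249, adjusted p = 0.0103). Into progenitor cells Sost (-4.11 ± 0.451, adjusted p = 5.16e-06 by limma) and Apcdd1 (-2.69 ± 0.255, adjusted p = 9.1e-07) fell most, and Wnt2 rose most (0.91 ± 0.235, adjusted p = 0.0122, and 0.0608 without the 6 replicate 1 libraries).

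The mutants kept this course. In all 3 genotypes Flk1 cells had the highest mean of 8 of the 10 genes, namely Wnt3, Wnt5a, Fzd2, Fzd7, Axin2, Lef1, Tcf7 and Dkk1, and ESC had the highest mean of Sfrp1. The Flk1 samples of these 8 genes did not overlap the next population in any genotype, except for Fzd2 in WT. Wisp1 was highest in HE1 in WT and Sp1_deltaDBD and in HE2 in Sp3KO, where its HE1, HE2 and progenitor values all lay between 1.37 and 2.63 FPKM.

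Against WT, 6 of 50 differences were called in Sp1_deltaDBD cells, none of them in ESC or Flk1. The number called was 0 of 10 in ESC, where 6.06% of all genes tested were called, and 0 of 10 in Flk1, where 5.54% were. It was 2 of 10 at each of the HE1, HE2 and progenitor stages, where 10%, 9.67% and 8.78% of all genes were. Those called were Axin2 and Tcf7 in HE1, Fzd7 and Tcf7 in HE2, and Fzd2 and Lef1 in progenitor cells. At an unadjusted p under 0.05 the 10 genes gave 2 in ESC (Fzd7 and Tcf7) and none in Flk1. They gave 3 in HE1 (Fzd2, Axin2 and Tcf7) and 3 in HE2 (Fzd7, Axin2 and Tcf7). In progenitor cells there were 6 (Fzd2, Fzd7, Axin2, Lef1, Tcf7 and Wisp1). No share of all genes at an unadjusted p is given here, so such counts have no background. In Sp3KO cells 1 of 50 differences was called, that of Fzd7 in HE2. The number was 0 of 10 in ESC, Flk1, HE1 and progenitor cells, where 11.3%, 12.6%, 10.9% and 8.65% of all genes were called, and 1 of 10 in HE2, where 13.8% were. By unadjusted p under 0.05, Sp3KO gave Fzd2 in ESC, Fzd7 and Dkk1 in Flk1, Wnt5a, Axin2, Sfrp1 and Wisp1 in HE1, Fzd7, Axin2 and Dkk1 in HE2, and Fzd7 in progenitor cells. The number of genes whose 2 mutant samples lay outside the range of the 2 WT samples was 2, 3, 6, 4 and 6 in the 5 populations of Sp1_deltaDBD and 4, 7, 5, 6 and 3 in those of Sp3KO, in the order ESC, Flk1, HE1, HE2 and progenitor. Over all genes the same was true of 45.2%, 55.2%, 50%, 45.7% and 44.5% in Sp1_deltaDBD and of 61%, 68%, 61.4%, 59% and 56.2% in Sp3KO. The counts lie on both sides of the background. By a fold rule (group means, each with 0.1 FPKM added, differing more than 2-fold, with over 3 FPKM in the higher group) 7 of 50 passed in Sp1_deltaDBD, all lower than WT, against 3.66% over all genes and populations, and 6 of 50 in Sp3KO, against 4.37%. Fzd7 in Sp1_deltaDBD HE2 lay at the edge of the rule, 1.99-fold above WT and, with nothing added to the means, 2.02-fold. It would then be the one member past the rule and higher than WT in Sp1_deltaDBD. The WT samples are shared by the comparisons of both mutants.

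**Figure D2:**
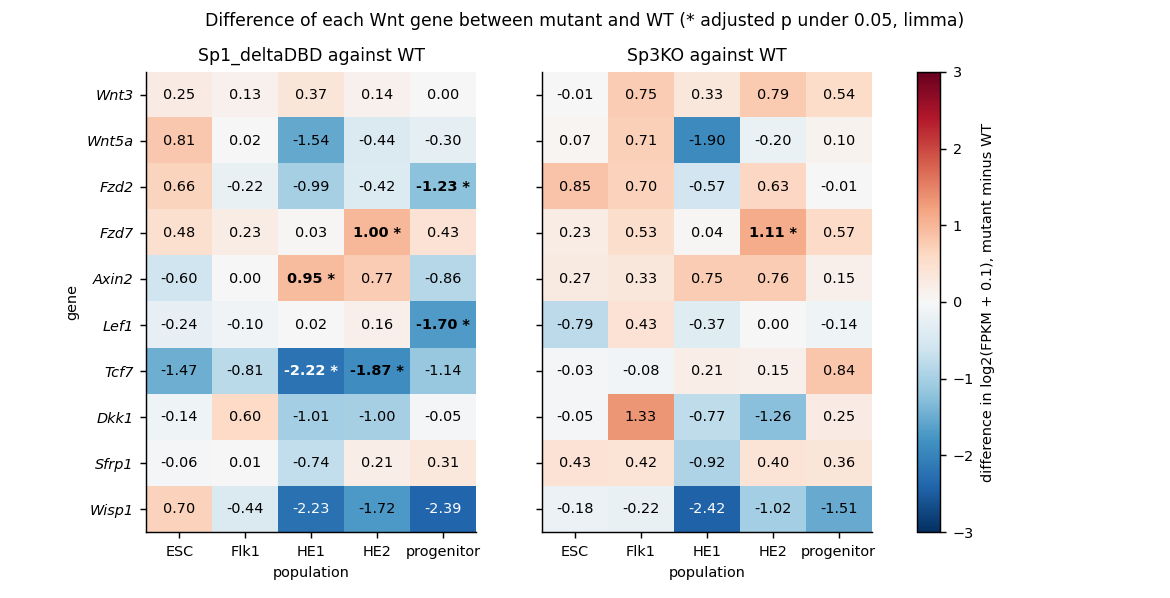
Difference of each of the 10 Wnt genes (rows) between mutant and WT in log2(FPKM + 0.1), by population (columns), Sp1_deltaDBD on the left and Sp3KO on the right, with red for higher and blue for lower in the mutant. Asterisks and bold type mark the 7 differences with an adjusted p under 0.05 by limma. Tcf7 is below WT in all 5 populations of Sp1_deltaDBD, and Fzd7 is called in HE2 in both mutants.

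Tcf7 was the member with the largest called difference. In Sp1_deltaDBD HE1 it was at 0.847 and 1.17 FPKM against 6.15 and 4.08 in WT, a difference of -2.22 ± 0.521 (n = 2 per group, adjusted p = 0.0109 by limma). In HE2 it was at 0.969 and 1.27 against 4.95 and 3.78 (-1.87 ± 0.521, adjusted p = 0.0277 by limma). The mutant samples lay below both WT samples in these populations, in Flk1 (18.6 and 15.4 against 28.1 and 31.3) and in progenitor cells (0.89 and 1.2 against 1.91 and 3.04), the latter 2 not called (adjusted p = 0.456 and 0.196 by limma). In ESC the 2 Sp1_deltaDBD samples disagreed, with 13.9 FPKM in replicate 1, within the WT range of 13.3 to 15.3, and 1.82 in replicate 2. Sp3KO ESC had 13.8 and 14.1 FPKM of Tcf7, Flk1 cells 28.2 and 28, HE1 cells 5.35 and 6.29, HE2 cells 5.28 and 4.36, and progenitor cells 4.37 and 4.4, with differences from WT between -0.08 and 0.84. The HE1 call was lost without replicate 1 of WT (-1.93, adjusted p = 0.105) or of Sp1_deltaDBD (-2.00, adjusted p = 0.0577), and the HE2 call without any 1 of its 4 samples (adjusted p = 0.063 to 0.158, differences of -1.68 to -2.06), with pseudocount 1 (-1.33, adjusted p = 0.0515) and in a fit of these samples alone (adjusted p = 0.0576). With the 6 replicate 1 libraries left out the differences were -1.71 and -1.50, neither called (adjusted p = 0.203 and 0.259).

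Axin2 differed from WT in the opposite direction at these stages. In HE1 it was at 4.04 and 4.83 FPKM in Sp1_deltaDBD and at 2.34 and 2.15 in WT (0.95 ± 0.295, adjusted p = 0.048 by limma). Sp3KO HE1 had 4.86 and 3.02 FPKM (0.75 ± 0.295, adjusted p = 0.112 by limma), and in HE2 Sp1_deltaDBD had 2.38 and 2.92 and Sp3KO 2.51 and 2.72 against 1.66 and 1.37 in WT (adjusted p = 0.11 and 0.0935 by limma). All 8 mutant HE1 and HE2 samples were thus above the WT samples of their population, with only the Sp1_deltaDBD HE1 difference called. In progenitor cells the Sp1_deltaDBD samples were below WT instead, at 0.927 and 1.19 against 2.3 and 1.73 FPKM (-0.86 ± 0.295, adjusted p = 0.0781 by limma). The single call was lost without any 1 of its 4 samples, with adjusted p of 0.0714 to 0.277 and differences of 0.82 to 1.07, in a fit of these samples alone (adjusted p = 0.172) and without the 6 replicate 1 libraries (1.13, adjusted p = 0.123). Flk1 cells, where Axin2 is at its peak, had 29.4 and 21.5 FPKM in Sp1_deltaDBD and 33 and 30.2 in Sp3KO against 24.8 and 25.5 in WT, with neither difference called.

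Fzd7 was higher in HE2 in both mutants. Sp1_deltaDBD HE2 had 6.6 and 7.9 FPKM and Sp3KO HE2 6.76 and 8.94, against 4.12 and 3.06 in WT, so that the 4 mutant samples lay above both WT samples. The differences were 1.0 ± 0.199 and 1.11 ± 0.199 (adjusted p = 0.0032 and 0.00159 by limma), about the size of the fall from HE1 to HE2 in WT. In HE1 the 3 genotypes overlapped, at 7.57 and 8.94 FPKM in Sp1_deltaDBD, 7.06 and 9.63 in Sp3KO and 9.03 and 7.14 in WT. The Sp1_deltaDBD call was lost without its replicate 2 (0.88, adjusted p = 0.0536), and both were lost in a fit of the samples of the comparison alone (adjusted p = 0.166 and 0.12). In Sp3KO progenitor cells Fzd7 was not called (adjusted p = 0.0862 by limma), but it was without the 6 replicate 1 libraries (0.81, adjusted p = 0.0239).

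Fzd2 and Lef1 were lower in Sp1_deltaDBD progenitor cells, where both were near the lower end of their range. Fzd2 was at 0.722 and 0.428 FPKM against 1.67 and 1.25 in WT (-1.23 ± 0.351, adjusted p = 0.0333 by limma), and Lef1 at 0.183 and 0.184 against 1.61 and 0.4 (-1.70 ± 0.508, adjusted p = 0.042 by limma). The Sp3KO progenitor samples had 1.88 and 1.1 FPKM of Fzd2 and 0.787 and 0.694 of Lef1, and overlapped WT. The Fzd2 call was lost without replicate 1 or 2 of WT or replicate 2 of Sp1_deltaDBD (adjusted p = 0.196, 0.0581 and 0.19), and the Lef1 call without replicate 1 of WT (-0.82, adjusted p = 0.436) or either Sp1_deltaDBD sample (adjusted p = 0.137 and 0.105), while the Lef1 difference was -2.59 without replicate 2 of WT. WT replicate 1, with the higher value of both genes, also had the higher stromal marker sum, 466 FPKM against 128 in replicate 2. This sum was 225 and 30 in Sp1_deltaDBD and 105 and 115 in Sp3KO. The blood marker sum differed too, at 10663 and 3107 FPKM in WT, 7317 and 5450 in Sp1_deltaDBD, and 1398 and 2440 in Sp3KO. The part of cell composition in either difference was not tested beyond leaving the libraries out. With the 6 replicate 1 libraries left out the difference was -0.81 for Lef1 (adjusted p = 0.388) and -1.36 for Fzd2 (adjusted p = 0.049). Both calls were lost with pseudocount 1, at -0.64 for Fzd2 (adjusted p = 0.136) and -0.69 for Lef1 (adjusted p = 0.29), and in a fit of these samples alone (adjusted p = 0.246 and 0.254). The correction for GC content and length also ended the Fzd2 call (-1.02, adjusted p = 0.0963).

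Wnt5a, Fzd2 and Wisp1 had lower means than WT in HE1 of both mutants, without a call. The size of these differences depends on replicate 1 of WT HE1, the library with the highest stromal marker sum. With a replicate block within each population, Wnt5a was called in Sp1_deltaDBD and Sp3KO (-1.54 and -1.90, adjusted p = 0.0379 and 0.0133 by limma). Fzd2 was then called in Sp1_deltaDBD (-0.99, adjusted p = 0.0241 by limma). No label ties a replicate number to a shared culture. Wnt5a was at 2.49 and 1.54 FPKM in Sp1_deltaDBD HE1 and at 2.16 and 1.04 in Sp3KO HE1, against 13.1 and 2.62 in WT (-1.54 and -1.90, adjusted p = 0.245 and 0.13 by limma). Without that library the Wnt5a differences were -0.40 and -0.76 (adjusted p = 0.899 and 0.734). Without replicate 2 of WT HE1 they were -2.68 and -3.04, the latter called (adjusted p = 0.0728 and 0.0405). Fzd2 had a mean of 3.07 FPKM in Sp1_deltaDBD HE1 and 4.1 in Sp3KO HE1 against 6.61 in WT (-0.99 and -0.57, adjusted p = 0.08 and 0.331 by limma). It was at -0.42 and 0.01 without replicate 1 of WT HE1 (adjusted p = 0.645 and 0.993), and at -1.57 and -1.14 without replicate 2, the former called (adjusted p = 0.0173 and 0.0686).

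Wisp1 was at 8.77 and 0.349 FPKM in Sp1_deltaDBD HE1 and at 1.98 and 1.37 in Sp3KO HE1 against 26.9 and 3.14 in WT (-2.23 and -2.42, adjusted p = 0.235 and 0.18 by limma). It was below WT by the fold rule in HE1, HE2 and progenitor cells of both mutants, with progenitor values of 2.04 and 0.47 in Sp1_deltaDBD, 1.62 and 2.31 in Sp3KO and 6.68 and 4.84 in WT. The HE1 differences shrank to -0.70 and -0.89 without replicate 1 of WT HE1 (adjusted p = 0.868 and 0.802). That of Sp1_deltaDBD moved to -0.08 without its own replicate 2 (adjusted p = 0.999) and to -4.38 without its own replicate 1 (adjusted p = 0.0193), so single libraries decide its size. With the 6 replicate 1 libraries left out the Sp1_deltaDBD difference was -2.85 at HE1, -2.37 at HE2 and -3.12 at the progenitor stage (adjusted p = 0.0204, 0.04 and 0.0182), values of 1 sample against 1. The Sp3KO differences were then -0.89, -0.28 and -1.28, none called (adjusted p = 0.393, 0.841 and 0.194).

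The stromal marker sum in HE1 was 2769 and 465 FPKM in WT, 1365 and 275 in Sp1_deltaDBD, and 310 and 173 in Sp3KO, with all 13 markers in the table and none under 0.1 FPKM in both samples of an HE1, HE2 or progenitor group. Wnt5a had this order of genotypes in both replicates, whereas Fzd2 was lower in Sp1_deltaDBD than in Sp3KO by its mean and Wisp1 was so in replicate 2. The replicate 1 to replicate 2 ratio of the sum was 4.96, 11.1 and 7.5 in Sp1_deltaDBD HE1, HE2 and progenitor cells, beside 25.2, 8.1 and 4.35 for Wisp1. In Sp3KO the ratios were 1.79, 1.28 and 0.909 for the sum and 1.44, 1.13 and 0.703 for Wisp1. No cells were counted by these markers, and the part of such cells in the differences was not tested beyond leaving the libraries out.

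**Figure D3:**
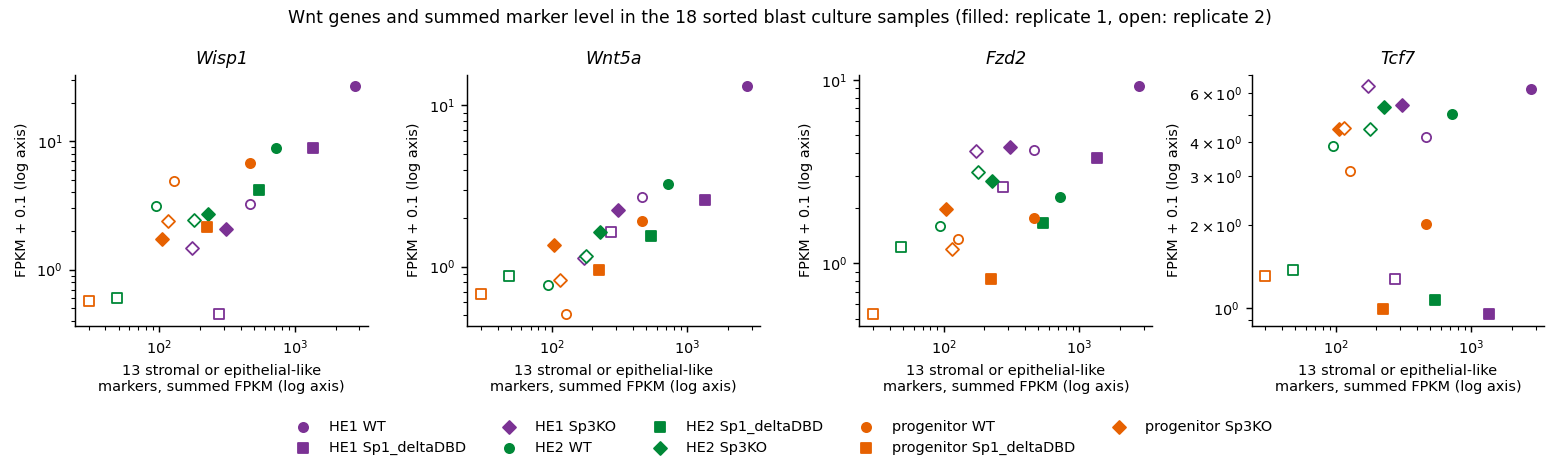
FPKM + 0.1 of Wisp1, Wnt5a, Fzd2 and Tcf7 (vertical, log axes) against the summed FPKM of 13 stromal or epithelial-like markers (horizontal, log axes) in the 18 sorted blast culture samples. Colour is the population, shape the genotype, filled points are replicate 1 and open points replicate 2. WT HE1 replicate 1 is the highest sample for the marker sum and for Wisp1, Wnt5a and Fzd2, whereas the 6 Sp1_deltaDBD samples have the lowest Tcf7 values, at 0.847 to 1.27 FPKM.

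Dkk1 was the only member past the fold rule in Flk1 cells. It was at 25.2 and 14.6 FPKM in Sp3KO Flk1 and at 17 and 7.88 in Sp1_deltaDBD Flk1, against 7.11 and 8.09 in WT. The Sp3KO samples did not overlap WT, but the difference was not called (1.33 ± 0.533, adjusted p = 0.111 by limma), whereas with pseudocount 1 it was (1.23, adjusted p = 0.00278). Further members with both Sp3KO Flk1 samples above both WT samples were Wnt3 (31.6 and 28.8 against 17.1 and 18.6 FPKM), Wnt5a, Fzd2, Fzd7, Axin2 and Lef1, none of them called, which makes 7 of the 10 where 68% of all genes had no overlap. Fzd7 was called there with each gene centred on its chromosome (0.63, adjusted p = 0.0395). It was also called without the 6 replicate 1 libraries of the later populations, none of which is in this comparison. Its difference stayed at 0.53, and only the standard error, shared over all groups, fell from 0.199 to 0.167. The 10 genes had a median difference of 0.48 there, against 0.00 over all genes and 0.00 for the same 10 in Sp1_deltaDBD Flk1. Sp3KO Flk1 cells also had more of the pluripotency markers, 382 and 356 FPKM in sum against 158 and 118 in WT, and more of the mesoderm markers, 590 and 651 against 492 and 486, and the part of these cells in the Wnt gene levels was not tested. Sfrp1 showed no call in either mutant, with its largest differences in HE1, where Sp1_deltaDBD had 0.674 and 0.774 FPKM and Sp3KO 0.431 and 0.895 against 1.27 and 1.28 in WT (adjusted p = 0.26 and 0.139 by limma).

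The difference between mutant and WT was compared between each later population and ESC. In Sp1_deltaDBD 1 of the 10 passed in HE1 and 1 in progenitor cells, and none in Flk1 or HE2, where the background was 3.99%, 3.15%, 1.74% and 2.62% of all genes in that order. Axin2 overlapped WT in Sp1_deltaDBD ESC, with a lower mean (0.957 and 2.08 against 1.75 and 2.77 FPKM, adjusted p = 0.282 by limma), and lay above it in HE1, which gave a difference of differences of 1.55 ± 0.418 (adjusted p = 0.0433 by limma). Fzd2 was above WT in ESC (4.27 and 3.19 against 2.79 and 1.91 FPKM, adjusted p = 0.34 by limma) and below it in progenitor cells (-1.89 ± 0.497, adjusted p = 0.0443 by limma). The Axin2 call was lost without replicate 2 of WT ESC, replicate 1 or 2 of WT HE1, replicate 1 of Sp1_deltaDBD ESC or replicate 2 of Sp1_deltaDBD HE1 (adjusted p = 0.0927 to 0.22), or the 6 replicate 1 libraries together (1.73, adjusted p = 0.0749). The Fzd2 call was lost without replicate 2 of WT ESC, replicate 1 or 2 of WT progenitor, replicate 1 of Sp1_deltaDBD ESC or replicate 2 of Sp1_deltaDBD progenitor cells (adjusted p = 0.0543 to 0.173). Without those 6 libraries Wisp1 was called in HE1, HE2 and progenitor cells against ESC (-3.55, -3.06 and -3.81, adjusted p = 0.0272, 0.044 and 0.0336), again from 1 sample a group in the later populations. At an unadjusted p under 0.05 there were 0 in Flk1, 3 in HE1 (Wnt5a, Fzd2 and Axin2), 2 in HE2 (Fzd2 and Axin2) and 1 in progenitor cells (Fzd2). In Sp3KO limma called none of the 10 in Flk1, HE1, HE2 or progenitor cells, where 1.48%, 2.16%, 0.544% and 1.34% of all genes passed, and the unadjusted p was under 0.05 for Fzd2 and Sfrp1 in HE1 and for Fzd7 in HE2. For Tcf7 the Sp1_deltaDBD difference was not called as different from that in ESC at any stage, where the ESC value includes the sample at 1.82 FPKM.

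Of the 10 genes, 4 lie on chromosome 11 in the GENCODE annotation of GRCm38 (mm10): Wnt3 at 103774150 to 103817957, Fzd2 at 102604396 to 102608058 and Axin2 at 108920349 to 108950783 on the plus strand, and Tcf7 at 52252371 to 52283014 on the minus strand. Wisp1 is on chromosome 15, Fzd7 on 1, Lef1 on 3, Sfrp1 on 8, Wnt5a on 14 and Dkk1 on 19. On chromosome 11 both mutants had lower values than WT over many genes. The median difference of the 1205 matched genes of chromosome 11 was -0.20, -0.12, -0.29, -0.31 and -0.34 in ESC, Flk1, HE1, HE2 and progenitor cells of Sp1_deltaDBD, and -0.16, -0.12, -0.22, -0.26 and -0.27 in those of Sp3KO. The median of the other chromosomes lay between -0.01 and 0.07. In Sp1_deltaDBD HE1 15.6% of the chromosome 11 genes were called lower, against 3.35% elsewhere. With each gene centred on its chromosome the HE1 call of Tcf7 stayed, the HE2 call of Tcf7 was lost (-1.51, adjusted p = 0.0784), and so was that of Fzd2 in progenitor cells (-0.85, adjusted p = 0.164). Axin2, which lies above the median of its chromosome in HE1 and HE2, was then called in 3 further comparisons: Sp1_deltaDBD HE2 (1.13, adjusted p = 0.026), Sp3KO HE1 (1.02, adjusted p = 0.0386) and Sp3KO HE2 (1.01, adjusted p = 0.0349). The lower level of chromosome 11 and the genotype cannot be told apart in these samples.

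**Figure D4:**
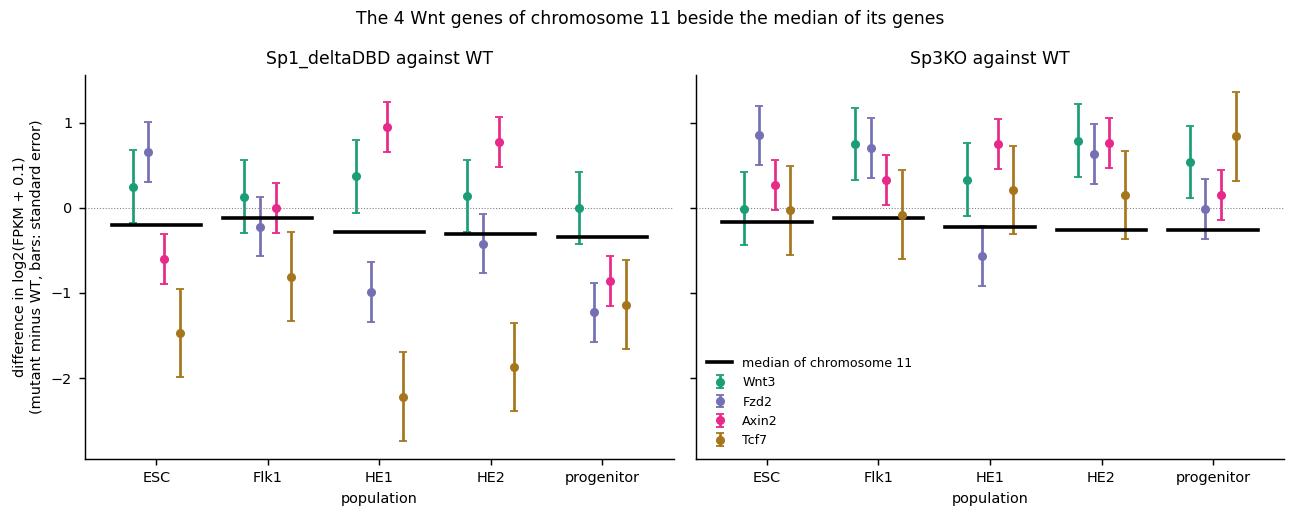
Difference between mutant and WT in log2(FPKM + 0.1), with its standard error, for the 4 Wnt genes of chromosome 11 (coloured points) by population, beside the median difference of all matched genes of that chromosome (black bars), for Sp1_deltaDBD on the left and Sp3KO on the right. The black bars lie below 0 in all 10 comparisons, between -0.12 and -0.34, and Tcf7 lies below them in each Sp1_deltaDBD population.

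Windows before RefSeq starts of the members were searched for the GC box, the element of Sp1 and Sp3, as GGGCGG or its reverse CCGCCC. They were also searched for 1 form of the core of TCF/LEF sites, CTTTGA or its reverse TCAAAG. Other forms, such as CTTTGT, were not searched. The RefSeq table (build GRCm38.p6) held starts for 6 of the 10 genes, and the 250 bases before each start were read. A GC box is present in 32.7% of all 32851 such windows, 2 or more in 16.7% and 6 or more in 0.886%, overlapping matches counted. Fzd7 had 6 boxes, 2 of which share a base, Axin2 and Wnt3 had 2 each, and 3 of the 4 starts of Lef1 had 1 each, while Dkk1 had none. The windows of the 2 most upstream Lef1 starts overlap and hold the same box. The windows of Wnt3, Dkk1 and the 2 downstream starts of Lef1 overlap the gene as GENCODE draws it and may not be promoters. The 2 windows of Tcf7 are not described, since they may lie within a longer form of that gene. The searched form of the TCF/LEF core was found in 13.8% of the windows, and 2 or more times in 1.37%. It occurred 2 times before Dkk1 and 2 times before the most downstream start of Lef1. The windows of Wnt3, Fzd7 and Axin2 did not hold this form. The windows of Fzd7 and Axin2, the members called higher in a mutant, and of Lef1, called lower in progenitor cells, are shown 5′ to 3′ on the strand of the gene, with the GC boxes in capitals. They are chr1:59481897-59482146, chr11:108920099-108920348 and chr3:131110047-131110296, all on the plus strand.
Fzd7: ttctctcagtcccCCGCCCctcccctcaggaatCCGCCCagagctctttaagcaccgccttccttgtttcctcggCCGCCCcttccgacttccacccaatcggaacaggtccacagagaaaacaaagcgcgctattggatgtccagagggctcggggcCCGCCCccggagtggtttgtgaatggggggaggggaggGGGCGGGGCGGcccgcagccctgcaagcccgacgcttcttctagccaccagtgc
Axin2: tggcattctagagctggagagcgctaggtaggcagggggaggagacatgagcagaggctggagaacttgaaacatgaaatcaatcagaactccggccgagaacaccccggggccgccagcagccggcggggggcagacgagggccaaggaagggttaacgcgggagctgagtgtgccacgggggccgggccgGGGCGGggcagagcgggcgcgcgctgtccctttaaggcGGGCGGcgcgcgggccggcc
Lef1: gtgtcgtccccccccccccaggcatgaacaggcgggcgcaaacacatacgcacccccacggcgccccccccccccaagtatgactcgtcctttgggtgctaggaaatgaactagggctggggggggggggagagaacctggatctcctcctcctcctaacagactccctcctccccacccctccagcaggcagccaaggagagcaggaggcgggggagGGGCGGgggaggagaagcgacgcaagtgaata
The letters are a description of these windows, and no binding was measured in this table.

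Beyond the 10, the listed gene that moved most regularly with the mutations was the receptor Fzd10, which was called higher than WT in 9 of 10 comparisons. It was at 2.13 to 20.8 FPKM in the 10 WT samples. In progenitor cells it had 7.73 and 10 FPKM in Sp1_deltaDBD and 23 and 23 in Sp3KO against 4.27 and 5.54 in WT, which gave 0.84 ± 0.249 and 2.22 ± 0.249 (adjusted p = 0.0402 and 5.09e-05 by limma). In HE2, its peak, it had 33.9 and 40.6 FPKM in Sp1_deltaDBD and 44.4 and 58.2 in Sp3KO against 14 and 20.8 in WT. The comparison without a call was Sp1_deltaDBD ESC, with 2.9 and 4.38 FPKM against 2.13 and 3.31. Without the 6 replicate 1 libraries the Sp1_deltaDBD calls in HE2 (0.96, adjusted p = 0.0758) and progenitor cells (0.85, adjusted p = 0.154) were lost, the latter also without any 1 of its 4 samples (adjusted p = 0.0504 to 0.245). The calls that held without any single library of their comparison were those of Sp1_deltaDBD Flk1 and of Sp3KO HE1, HE2 and progenitor cells. Fzd10 lies outside the 10 members, so the receptor family showed differences in both directions in Sp1_deltaDBD progenitor cells, with Fzd10 higher and Fzd2 lower.

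Over the 75 other listed genes, Sp1_deltaDBD had 1 called higher and 0 lower at ESC, 4 and 1 at Flk1, 3 and 4 at HE1, 5 and 2 at HE2, and 2 and 3 at the progenitor stage, which is 1.33%, 6.67%, 9.33%, 9.33% and 6.67% of the list against 6.06%, 5.54%, 10%, 9.67% and 8.78% of all genes. Sp3KO had 5 and 2, 12 and 6, 4 and 5, 5 and 2, and 7 and 1, which is 9.33%, 24%, 12%, 9.33% and 10.7% against 11.3%, 12.6%, 10.9%, 13.8% and 8.65%. Sp3KO Flk1 is thus the comparison in which the list stood farthest from the share of all genes. The 3 genes called lower in Sp1_deltaDBD progenitor cells were 2 of the CCN family and 1 of the 2 secretion genes. The largest changes in Sp3KO Flk1 were in targets and antagonists: Sp5, a target and Sp family factor, had 25.1 and 20.5 FPKM against 2.72 and 1.9 (3.26 ± 0.524, adjusted p = 0.000811 by limma), and Frzb, a secreted antagonist, 24.4 and 21 against 4.55 and 2.56 (2.69 ± 0.47, adjusted p = 0.00136). At the same stage the receptor Fzd4 (-1.71 ± 0.267, adjusted p = 0.000657 by limma) and Apcdd1 (-1.20 ± 0.255, adjusted p = 0.00508) fell. In Sp1_deltaDBD Flk1 Fzd10 (1.43 ± 0.249, adjusted p = 0.00162 by limma) and Btrc, a ubiquitin ligase subunit that binds beta-catenin (0.69 ± 0.163, adjusted p = 0.0162), rose.

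In HE1 and HE2 antagonists were called in both directions, except in Sp1_deltaDBD HE1, where all calls were falls. Of the 14 tested, Dkk1 and Sfrp1 included, 0 were higher and 3 lower in Sp1_deltaDBD HE1, and 1 and 2 in Sp3KO HE1. In HE2 1 was higher and 1 lower in each mutant. The share was 21.4% in both HE1 comparisons, against 10% and 10.9% of all genes. It was 14.3% in both HE2 comparisons, against 9.67% and 13.8%. Sost was at 1.61 and 1.59 FPKM in Sp3KO HE1 against 9 and 7.41 in WT (-2.28 ± 0.451, adjusted p = 0.0036 by limma). In Sp1_deltaDBD HE1 it had 4.93 and 1.67 FPKM (-1.47 ± 0.451, adjusted p = 0.0447 by limma). That call was lost without either WT sample or replicate 2 of Sp1_deltaDBD (adjusted p = 0.22, 0.0965 and 0.525). In HE2 Sost had 0.774 and 0.905 in Sp3KO and 2.51 and 0.714 in Sp1_deltaDBD against 4.33 and 4.44 in WT (-2.26 and -1.62, adjusted p = 0.00336 and 0.0274 by limma). Dkk3, a divergent Dickkopf protein, had 0.961 and 0.43 FPKM in Sp1_deltaDBD HE1 against 5.65 and 2.93 (-2.48 ± 0.592, adjusted p = 0.012 by limma). Nkd1 rose in Sp1_deltaDBD HE2 (1.32 ± 0.346, adjusted p = 0.0199 by limma), and Apcdd1 in Sp3KO HE2 (1.17 ± 0.255, adjusted p = 0.00568). Apcdd1 was called higher in Sp3KO HE1 as well (0.87, adjusted p = 0.0336 by limma), but not without replicate 1 of WT (0.59). Amer1, a scaffold of the destruction complex, rose in Sp3KO HE1 (0.96 ± 0.173, adjusted p = 0.00185 by limma), and Bcl9l, a beta-catenin co-activator, in Sp3KO ESC (1.18 ± 0.266, adjusted p = 0.00759). In progenitor cells Wnt2 rose in Sp1_deltaDBD (1.20 ± 0.235, adjusted p = 0.00313 by limma) and Rspo3 in Sp3KO (1.13 ± 0.311, adjusted p = 0.0286). With the 6 replicate 1 libraries left out the Nkd1 and Rspo3 calls were lost (adjusted p = 0.13 and 0.0823), while Sost in HE1 and HE2 of Sp3KO (-2.14 and -2.28) and HE2 of Sp1_deltaDBD (-2.48), and Dkk3 (-2.52), were called. Leaving out single libraries ended the Sp1_deltaDBD calls of Sost in HE2 (-0.78 without replicate 2 of Sp1_deltaDBD, and -1.64 and -1.60 without replicate 1 and 2 of WT, adjusted p = 0.426, 0.112 and 0.0954). The same held for Dkk3 (-2.02 without replicate 1 of WT and -1.98 without replicate 2 of Sp1_deltaDBD, adjusted p = 0.131 and 0.158). They also ended those of Btrc (any 1 of its 4 samples, adjusted p = 0.0787 to 0.142) and Bcl9l (replicate 2 of WT or 1 of Sp3KO, adjusted p = 0.0635 and 0.0898). The Apcdd1 call was lost in Sp3KO Flk1 without replicate 2 of WT or 1 of Sp3KO (adjusted p = 0.0611 and 0.0838), and in HE2 without replicate 2 of Sp3KO (adjusted p = 0.0922). That of Nkd1 was lost without replicate 1 of WT or 2 of Sp1_deltaDBD (adjusted p = 0.127 and 0.134). That of Rspo3 was lost without either WT sample or replicate 1 of Sp3KO (adjusted p = 0.081, 0.128 and 0.303).

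The calls among relatives of Wisp1 in the CCN family were all falls. They are also counted among the 75 listed genes above. Of the 5 family members tested, Wisp1 included, those of Sp1_deltaDBD were 2 in progenitor cells, where 8.78% of all genes were called. In Sp3KO 2 fell in HE1 and 1 each in Flk1, HE2 and progenitor cells, against 10.9%, 12.6%, 13.8% and 8.65% of all genes. Ctgf was at 21 and 14.1 FPKM in Sp3KO HE1 against 82 and 62.2 in WT (-2.05 ± 0.49, adjusted p = 0.0116 by limma), and at 3.18 and 0.798 against 11.1 and 4.88 in Sp1_deltaDBD progenitor cells (-2.12 ± 0.49, adjusted p = 0.01). Cyr61 was at 11.5 and 12.8 FPKM against 35.9 and 31.5 in the latter (-1.46 ± 0.295, adjusted p = 0.00379 by limma). Both proteins are made by many adherent cells, and the WT replicate 1 libraries of these populations had the high stromal marker sums given above. With the 6 replicate 1 libraries left out Ctgf was called in both (-1.85 and -2.47) and Cyr61 was not (-1.29). In progenitor cells these are values of 1 sample against 1. In Sp3KO HE1 the Ctgf difference was also -1.85 without replicate 1 of WT alone. Only its standard error differed, 0.3 against 0.611, since the spread is then taken from other groups. Leaving out replicate 1 of WT alone ended both Ctgf calls (-1.85 and -1.54, adjusted p = 0.0959 and 0.138), as did leaving out replicate 2 of the mutant (-1.76 and -1.19, adjusted p = 0.126 and 0.136).

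The genes most like each member in pattern were taken by Pearson correlation of log2(FPKM + 0.1) over the 15 group means, which share samples and normalisation, as a description. For Wnt3 they were Egflam (0.996), Msx2 (0.978) and Smad1 (0.972), and for Dkk1 they were Glis1 (0.987), Sox9 (0.970) and Pdgfra (0.968). Wnt5a was nearest to Crb2, Greb1 and Kif26b (0.966 to 0.969), Axin2 to Evx1os, Pgr and Kcnq3 (0.963 to 0.973), and Lef1 to Ube2d1, Slc6a6 and Tsku (0.966 to 0.975). Fzd7 was nearest to Tenm3 (0.982) and Rce1 (0.974), Fzd2 to Nfatc4, Slc27a3 and Pcbp4 (0.946 to 0.956), Sfrp1 to Igsf9, Sdc4 and Klf9 (0.979 to 0.982), and Wisp1 to Slc39a11, Arhgap23 and Ift20 (0.946 to 0.948). Tcf7 had the lowest values, with Ap3s2 (0.941), Efs (0.935) and the Wnt5a co-receptor Ror2 (0.912). Among the members themselves the closest pairs were Wnt3 with Wnt5a (0.96), Wnt5a with Dkk1 (0.95) and Fzd2 with Lef1 (0.92), and Wisp1 ran against all the others, from -0.38 with Wnt5a to -0.89 with Fzd7.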

How the data were processed

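Total RNA of 30 samples (15 groups of 2, grouped by their titles) was sequenced as paired ends after ribosomal RNA depletion with a stranded kit. Reads were trimmed and aligned with HISAT2 (2.1.0) to mm10, and FPKM were estimated with StringTie (1.3.3). The deposited FPKM values were quantile-normalised by the authors over the samples and hold genes above 1 FPKM in at least 1 sample in their filter. After that normalisation every sample has nearly the same distribution, with a largest difference of 0.192 FPKM at any rank, so a change in total RNA cannot be seen, and FPKM keep no depth, so no counting interval is given.

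Here log2(FPKM + 0.1) of the 14525 genes above 1 FPKM in at least 1 sample was fitted with limma (3.58.1, R 4.3.3; trend and moderated variance) as 15 group means over 30 samples, with 15 residual degrees of freedom, and p-values were adjusted by Benjamini-Hochberg within each comparison. The study describes the 2 samples of a group as biological replicates, but the labels do not say that they came from separate cultures. The p-values therefore measure the spread between these samples. The fold rule used group means. On simulated data of the same size, for Sp1_deltaDBD against WT in HE1 with 200 genes among 14525 changed by 2 in log2, 94% were called, and 7.39% of the calls were unchanged genes. Gene positions came from GENCODE for 14554 genes matched by symbol, including 184 by an older symbol. Members, pathway lists and markers were chosen with earlier results of these data known. Named were all members, from the lists the 2 largest called rises and falls with over 3 FPKM per comparison, and the 3 genes nearest to each member in pattern (1 gene in all is not reported here). Alternatives were another pseudocount, other filters, the samples of the comparison only, replicate blocks, centring on the chromosome, correction for GC content and length, and leaving out each library. Leaving out 6 libraries together, and the fold rule with nothing added, were chosen after seeing the data. Tables and figures were made with Python (3.11.15), numpy (2.4.6), pandas (2.3.3) and matplotlib (3.10.9).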

Additional observations from a re-analysis of the deposited data

Results flagged for a closer look

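The difference of Sp1_deltaDBD from WT differed between HE1 and ESC for Axin2 by 1.55 ± 0.418 in log2(FPKM + 0.1) (adjusted p = 0.0433 by limma, a test of the difference itself), where the ESC samples overlapped WT with a lower mean (-0.60, adjusted p = 0.282) and the HE1 samples were above it. This call was lost without any 1 of 5 single libraries. For Fzd2 it differed between progenitor cells and ESC by -1.89 ± 0.497 (adjusted p = 0.0443 by limma), the samples lying above WT in ESC, without a call, and below it in progenitor cells. This call too was lost without any 1 of 5 single libraries. Groups of 2 samples are too small for a search for single outlying samples.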

How the results depend on the processing

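The number of calls among the 10 genes changed with the fit, and no called difference reversed its sign in any alternative. In a fit of the samples of each comparison alone, 2 differences were called in Sp1_deltaDBD (6 in the fit reported above), 0 in Sp3KO (1 above) and 0 in the Sp1_deltaDBD comparison of later populations with ESC (2 above), with the fewer samples leaving 2 or 4 residual degrees of freedom. Pseudocount 1 gave 2 in Sp3KO. Centring on the chromosome gave 4 in Sp3KO and 1 in the Sp1_deltaDBD comparison with ESC, and the correction for GC content and length gave 1 in the latter. Leaving out the 6 replicate 1 libraries together (an alternative chosen after seeing the data) gave 4 in Sp3KO (Fzd2 in ESC and Fzd7 in Flk1, HE2 and progenitor cells), 4 in the Sp1_deltaDBD comparison with ESC and 1 in that of Sp3KO (0 above). Fzd2 in ESC and Fzd7 in Flk1 of Sp3KO hold none of these libraries in their comparisons, and their differences stayed at 0.85 and 0.53. Their standard errors fell from 0.351 to 0.266 and from 0.199 to 0.167. Why the counts moved otherwise was not tested. With 1 library left out the counts ranged from 4 to 9 in Sp1_deltaDBD, 1 to 2 in Sp3KO, 18 to 22 in the WT steps, 0 to 5 and 0 to 1 in the comparisons with ESC of Sp1_deltaDBD and Sp3KO, and 10 to 15 by the fold rule. The 2 in Sp3KO were reached without replicate 2 of WT HE1 or replicate 1 of WT progenitor cells, the latter 5 without replicate 2 of Sp1_deltaDBD ESC, the 0 of Sp1_deltaDBD without replicate 2 of WT ESC or either WT Flk1 sample, and the 1 of Sp3KO without replicate 2 of WT HE1. A replicate block within each population gave 4 calls in Sp3KO, adding Fzd2 in ESC and Wnt5a and Sfrp1 in HE1, and 4 in the Sp1_deltaDBD comparison with ESC, and a replicate block within each genotype gave 7 in Sp3KO, adding Fzd2 in ESC and Flk1, Dkk1 in Flk1 and HE2, and Fzd7 in Flk1 and progenitor cells, and 1 in its comparison with ESC; the other counts stayed within 1.5 times. Same-numbered samples of WT and Sp1_deltaDBD deviated together (correlations of 0.169 to 0.443 over genes within a population), those of WT and Sp3KO less (-0.026 to 0.151), and so did HE1, HE2 and progenitor cells within WT and within Sp1_deltaDBD (0.31 to 0.543); no label says that a number marks a shared culture. Depth is unknown, so values near 0.1 FPKM carry an unknown counting error.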
